A study of Mus musculus with 2 samples.

Results

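Fibroblast-rich spots of section 2 were the spots of a mouse cerebellum with a breast tumor in which the transcripts of *Col1a1*, *Col3a1* and *Dcn* took the largest share of all transcripts. They were chosen among the 3902 spots under tissue with at least 2000 unique molecular identifiers (UMIs, each 1 captured probe molecule), as the top 4% by the summed CPM (UMIs of a gene per 1000000 UMIs of the spot or group) of the 3 genes. The rule gave 156 members of 4017 spots under tissue in this section and 7423 in the series. They were split by the summed CPM of *Epcam*, *Krt7* and *Krt8*, which mark the tumor epithelium: 142 members with at least 500 CPM are called epithelial-high here, and the 14 below it epithelial-low. Each class was set beside its neighbors, the spots with at least 2000 UMIs that were no member and lay within 3 steps on the hexagonal array.

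The study placed mouse mammary tumor organoids into the cerebellum of syngeneic C57BL/6 mice by stereotactic injection and profiled the tumor-bearing tissue by Visium CytAssist, a probe-based assay of whole spots, each of which can hold several cells of different types. Both sections carry the genotype label HP, which the study uses for organoids with human HER2 V777L, driven by an actin promoter once Cre had acted, and PIK3CA H1047R, and both were labelled as untreated. The organoids carried luciferase, and whether the assay's mouse probes read the human transgene was not tested. Section 1 was labelled HP-F1 +cre and section 2 HP-B6 +cre. The methods name 5-month-old mice, imaged by MRI at 3 weeks and then sacrificed. Section 2 is 1 section, so no test was possible: spots of 1 section are not replicates, every value here describes this section, and intervals in brackets are 95% exact intervals that cover counting error only.

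Fibroblasts build the collagen and proteoglycan scaffold of connective tissue. In the healthy brain they are confined to the meninges, the layered sheath over the brain surface, to the sheaths of larger vessels and to the choroid plexus stroma, and the parenchyma between neurons and glia holds nearly none. *Col1a1* and *Col3a1* encode chains of the fibrillar collagens I and III, and *Dcn* encodes decorin, a small proteoglycan that binds collagen fibrils. In breast tumors, fibroblasts and pericytes of the stroma make the same collagens, while decorin and *Lum* (lumican) are typical of fibroblasts of connective tissue and meninges.

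The members were chosen by the measured levels of these 3 genes, and split by those of *Epcam*, *Krt7* and *Krt8*. In GRCm38 (mm10), *Col1a1* (ENSMUSG00000001506) lies on chromosome 11 from 94936224 to 94953042, *Col3a1* (ENSMUSG00000026043) on chromosome 1 from 45311538 to 45349706, and *Dcn* (ENSMUSG00000019929) on chromosome 10 from 97479500 to 97518163. The summed level of the 3 genes was 6162 CPM in the highest member, 1118 CPM in the median member and 747.8 CPM in the lowest, with 744.8 CPM in the first spot outside and 48.9 CPM in the median of all 3902 spots. The limit therefore fell within a continuous range and not in a gap. Members held 40.9% of the *Col1a1*, 47.4% of the *Col3a1* and 23.3% of the *Dcn* UMIs of the section, against 6.14% of all UMIs.

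The epithelial-high members lay largely on 1 side of the tumor, with smaller groups scattered within it. The epithelial-high members formed 37 patches of adjoining spots, of which 8 had at least 5 spots and together held 96 members, and the largest had 36. At the tissue edge lay 30 of the epithelial-high and 5 of the epithelial-low members, 21.1% and 35.7%, against 7.87% of all eligible spots. Of the 14 epithelial-low members, 9 lay 1 step from a spot with at least 500 CPM of the epithelial genes, and the other 5 lay 2 to 27 steps away. Most spots set apart as meninges or other thus adjoined the tumor, so this class is described by its level of epithelial genes and not by a site.

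**Figure D1:**
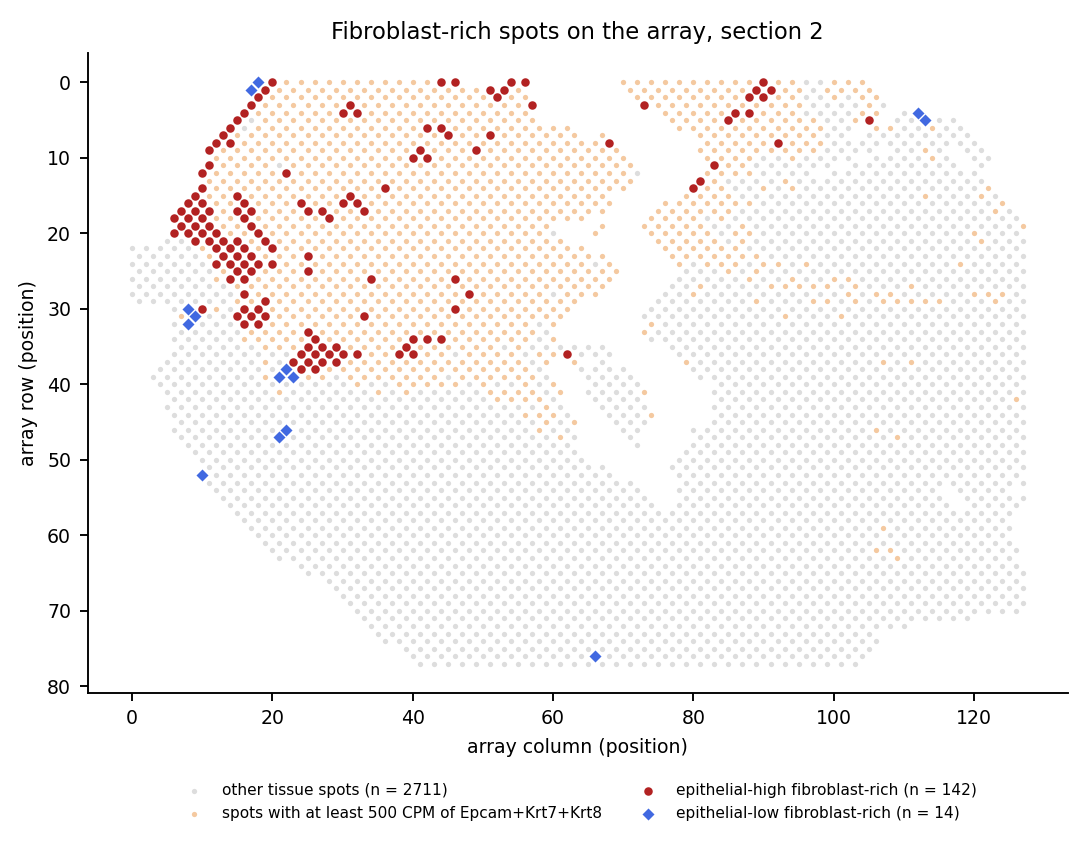
Array positions (column on the x axis, row on the y axis) of the spots under tissue of section 2; tan spots had at least 500 CPM of *Epcam*, *Krt7* and *Krt8*, red circles are the 142 epithelial-high and blue diamonds the 14 epithelial-low members. Most red spots lie at the left side of the tumor, and 9 of the 14 blue spots lie 1 step from an epithelial spot.

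Depth differed between the classes. The epithelial-high members had a median of 30067.5 UMIs per spot (3790 to 89694) and 4318945 in all, and the epithelial-low members a median of 7180.5 (2303 to 12923) and 96476 in all. In the epithelial-low class 1 UMI is thus worth 10.4 CPM, and a count of 0 allows a level of up to 31.1 CPM (3 counts over the group). The neighbors numbered 840 (median 36108.5 UMIs) and 172 (median 10333.5 UMIs), and 64 spots were neighbors of both classes. Across the 3096 array positions under tissue in both sections, the UMIs of *Col1a1* had a Spearman rho of 0.15, those of *Col3a1* 0.06 and those of *Dcn* -0.08, and *Crabp1*, with 42530 UMIs in section 1, had 13 in section 2.

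The label was checked against *Col1a2*, *Lum* and *Pdgfra*, which the rule did not use. *Col1a2*, the partner chain of collagen I, had a UMI in 141 of the 142 epithelial-high members, from 0 to 2284 CPM with a median of 454 CPM, and in 11 of the 14 epithelial-low members, with a median of 493 CPM. *Lum* had a UMI in 84 and 7 members, and *Pdgfra*, a receptor that marks most fibroblasts, in 62 and 3. *Dcn* itself was at 0 in 28 members, all of them epithelial-high. *Col1a2* thus had a UMI in nearly every member, and *Dcn*, *Lum* and *Pdgfra* in a part of them, so the members are called fibroblast-rich only by their rule. *Col1a1* and *Col3a1* chose the members and cannot check the label. A UMI alone does not set the members apart. Of the 840 neighbors of the epithelial-high members, 818 had a UMI of the rule's genes or of the genes of this check. In a spot, more fibroblasts and more RNA per fibroblast cannot be told apart.

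The classes differed in how the rule's genes made up the sum. *Col1a1* gave 59.4% of the 3 genes' UMIs in the epithelial-high members and 30.3% in the epithelial-low members, *Col3a1* 31.7% and 43.6%, and *Dcn* 8.90% and 26.1%. *Dcn* ranged from 0 to 789 CPM in the epithelial-high members, with a median of 94.3 CPM, and from 186 to 1220.4 CPM in the epithelial-low members, with a median of 516 CPM. The ranges overlapped, and every epithelial-low member had a *Dcn* UMI. *Dcn* had more UMIs than *Col1a1* in 8 of 14 epithelial-low members and in 3 of 142 epithelial-high members. These genes chose the members, so their values are a description.

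**Figure D2:**
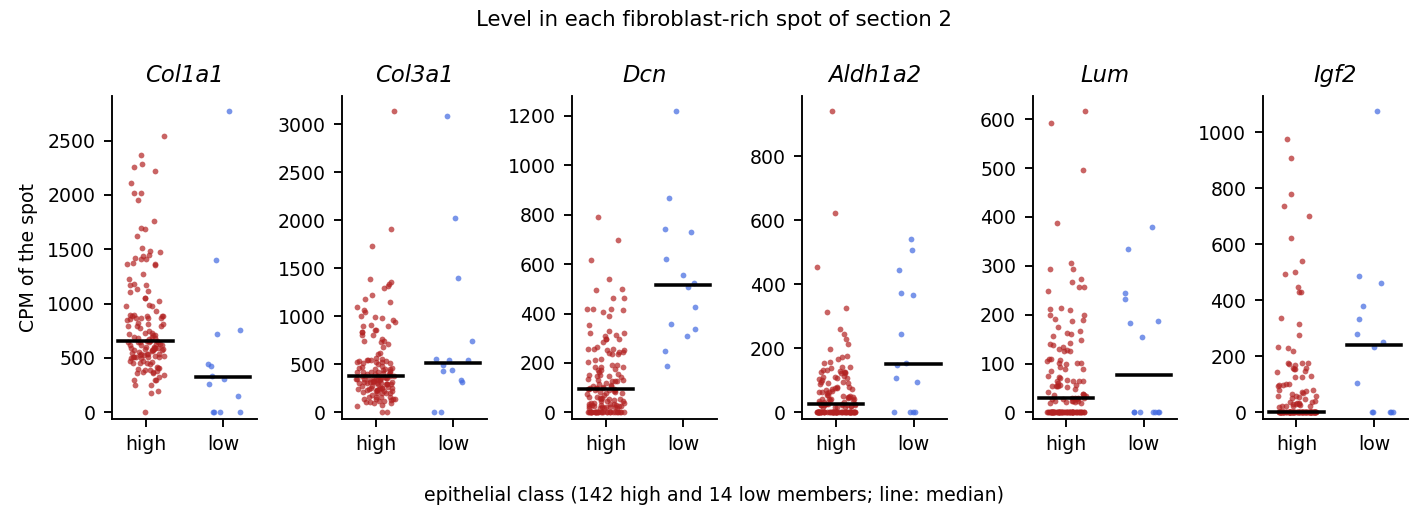
Level in CPM (y axis, linear) of 6 genes in each of the 142 epithelial-high (red) and 14 epithelial-low (blue) members of section 2, with the median as a black line. *Dcn* has its median at 94.3 CPM in the high and 516 CPM in the low class, with overlapping ranges.

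Over the 156 members, the CPM of *Dcn* and *Col1a1* had a Spearman rho of -0.01. The members were cut on the sum of the rule's genes, which by itself lowers the rho between them. Whether these genes vary independently therefore cannot be read from it. The rho of *Col1a1* with the epithelial genes was 0.06. *Dcn* was lower where the epithelial genes were higher (rho -0.56), and its rho was positive with *Aldh1a2* (0.56), *Igf2* (0.56), *Lum* (0.52) and *Col3a1* (0.52). *Fn1*, the gene of fibronectin, which epithelium also makes, ran the other way (rho -0.36 with *Dcn* and 0.40 with the epithelial genes). These points share 1 library and adjoining spots, and both genes of a pair share the spot's depth, whose rho with *Dcn* was -0.29 and with *Col1a1* 0.21.

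In the epithelial-high members, the 3 fibroblast markers that the rule did not use, *Col1a2*, *Lum* and *Pdgfra*, were above the neighbors by more than 2-fold, together with some genes known from meninges and plasma cells. The other 3 of the 6 listed fibroblast markers chose the members. Of 9225 genes with at least 20 CPM in either group, 117 were more than 2-fold higher (1.27%) and 13 more than 2-fold lower (0.141%), together 1.41%, and the median log2 difference over all of them was -0.01. Set by UMIs per spot in place of CPM, the split was 81 and 26, and by the mean of spot CPM it was 82 and 27. Of the neighbors, 86.1% were themselves epithelial spots. Since the contrast follows the rule, its fold changes describe the members.

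Several fibrillar collagen genes were higher. *Col3a1* was at 459 CPM [439 to 479] in the members and 60.7 CPM in the neighbors (log2 2.90), *Col1a1* at 859 CPM [831 to 887] and 141 CPM (2.59), and *Col1a2* at 577 CPM [554 to 600] and 102 CPM (2.49). Of 9 listed genes of fibrillar collagens, 7 reached the level of 20 CPM and 5 of these were past 2-fold, all higher, with a median log2 of 2.00. Without *Col1a1* and *Col3a1*, which chose the members, 3 of 5 were past it, with a median of 1.83. These 3 were *Col1a2* and the genes of 2 chains of collagen V, a collagen that limits fibril width, *Col5a1* (64.4 against 17.4 CPM, log2 1.83) and *Col5a2* (118 against 28.6 CPM, 2.00). *Fbn1*, the gene of fibrillin-1 in elastic microfibrils, was at 85.9 CPM against 16.2 CPM (2.33).

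The proteoglycans and matrix binders were higher too. *Lum* was at 71.8 CPM [64.0 to 80.2] against 11.5 CPM (log2 2.54), *Bgn* (biglycan) at 274 CPM against 75.3 CPM (1.85), and *Dcn* at 129 CPM against 32.7 CPM (1.94). Of the 11 listed small proteoglycans of this family, 4 reached the level and 3 were past 2-fold, all higher, or 2 of 3 without *Dcn*. *Mgp*, an inhibitor of calcification made by dural fibroblasts and vessel walls, was at 676 CPM against 120.1 CPM (2.48). *Serpinf1*, an inhibitor of vessel growth, was at 90.3 CPM against 24.6 CPM (1.83).

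A minority of the basement membrane genes were past 2-fold, though a larger share than over all genes. *Col4a1* was at 592 CPM against 306 CPM (log2 0.95). Of 15 listed genes of basement membranes 13 reached the level, 3 were past 2-fold, all higher, and the median log2 was 0.72. Over all genes compared, 1.27% were past 2-fold higher and the median was -0.01. *Lama1*, a laminin of the pial basement membrane, was at 14.1 CPM [10.8 to 18.1] against 1.19 CPM, below the 20 CPM needed to be counted. Matrix proteins that the tumor also held were near their neighbors' level, with *Fn1* at 2507 against 2448 CPM and *Tnc* (tenascin C) at 2456 against 2653 CPM. *Thbs1* (thrombospondin 1) was at 2762 CPM against 4701 CPM.

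Some genes known from the meninges were higher. *Aldh1a2*, the enzyme that makes retinoic acid in the arachnoid and pia, was at 51.2 CPM [44.6 to 58.4] in the members and 7.13 CPM in the neighbors (log2 2.68), with a UMI in 86 of 142 members. *Igf2*, a growth factor of meningeal and choroid plexus stroma, was at 77.8 CPM [69.7 to 86.6] against 6.02 CPM (3.49), with a UMI in 63. *Ptgds*, the prostaglandin D synthase of the leptomeninges, was at 83.8 CPM against 22.3 CPM (1.86). This depended on the spots taken. *Ptgds* was at 549 CPM in the members at the tissue edge and 31.2 CPM in the 112 others. Among the neighbors it was at 12.9 CPM in the epithelial spots and 168 CPM in the other 117, above the members. *Igf2* was at 3.73 CPM in the epithelial neighbors and 41.2 CPM in the other 117, nearer its level in the members. *Aldh1a2* was at 6.33 and 19.4 CPM. The lists for meningeal layers differed, beside a median log2 of -0.01 over all genes. Of 8 pial genes 3 reached the level and 0 were past 2-fold (median -0.24). For arachnoid barrier genes it was 2 of 5 (of 7 listed, median 0.51) and for dural genes 1 of 2 (of 6 listed, 1.52). For perivascular fibroblast genes it was 1 of 2 (of 4 listed, 1.27). *Lama1* and *Foxd1*, also on the pial list, were above the neighbors but below the level and so outside this count. *Foxd1* was at 59.2 CPM in the members at the tissue edge and 11.9 CPM in the others. In the neighbors it was at 3.58 CPM in the epithelial spots and 8.58 CPM in the rest. *Foxc1*, a transcription factor of meningeal fibroblasts, was at 137 CPM in the members and 162 CPM in the neighbors. Among these neighbors it was at 171 CPM in the epithelial spots and 25.2 CPM in the others. It thus went with the epithelial spots here and does not report on meningeal fibroblasts.

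The lists of vessel cell markers were higher as a whole, though most listed genes were within 2-fold. *Acta2* and *Tagln*, contractile genes of smooth muscle and myofibroblasts, were at 117 against 50.4 CPM and at 102 against 35.2 CPM. *Pdgfrb*, a receptor of pericytes and fibroblasts, was at 86.1 against 33.0 CPM, and the endothelial cadherin *Cdh5* at 122 against 54.4 CPM. Of the listed markers that reached the level, 2 of 4 for smooth muscle, 1 of 4 for pericytes and 1 of 6 for endothelium were past 2-fold, all higher, which are the 4 genes named here. Over all genes compared, 1.27% were past 2-fold higher. The median log2 was 1.07 for smooth muscle, 0.89 for pericytes and 0.92 for endothelium, beside -0.01 over all genes. The summed smooth muscle markers ranged from 0 to 1087 CPM over the members (median 247 CPM) and from 0 to 1224 CPM over the neighbors (median 96.7 CPM). Their part in the collagen levels was not tested.

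Of 6 genes listed for antigen-presenting fibroblasts, 4 were past 2-fold, all higher, as was 1 of the 4 border macrophage genes that reached the level. Over all genes compared, 1.27% were past 2-fold higher. The 6 genes summed to 1821 CPM in the members and 1443 CPM in the neighbors. Which cells of a spot held them was not tested, so they show no fibroblast state. The border macrophage gene was *Mrc1*, the mannose receptor of macrophages at brain borders, at 70.4 against 29.1 CPM (log2 1.25). *Cd68*, a lysosomal protein of macrophages, was at 425 against 257 CPM, and 0 of the 4 general macrophage markers that reached the level were past 2-fold. Among the neighbors *Cd68* was at 208 CPM in the epithelial spots and 1007 CPM in the other 117, above the members. *Cd74*, the chaperone of MHC class II, was at 587 against 235 CPM (1.32) and the class II chain gene *H2-Aa* at 175 against 58.4 CPM (1.56). Of the 3 genes the study turns on, *Il34* was at 62.7 CPM [55.5 to 70.7] in the members and 57.4 CPM in the neighbors, its receptor gene *Csf1r* at 208 and 121 CPM, and *Arg1*, the arginase of its macrophages, at 747 and 559 CPM. None of the 3 was past 2-fold.

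Epithelial genes were lower in the members than in their neighbors. *Krt7* was at 2009 CPM against 3500.2 CPM (log2 -0.80) and *Epcam* at 1229.9 CPM against 1609 CPM (-0.39), and the summed tumor epithelium markers at 4951 CPM against 7579.9 CPM. *Krt7* and *Epcam* are genes of the split, which sets a floor of 500 CPM for the members and none for the neighbors, so their values are a description. Without the genes of the split, 0 of 3 listed tumor epithelium markers were past 2-fold, with a median log2 of -0.42. *Tfcp2l1*, a transcription factor of epithelia, was at 349.9 against 788 CPM (-1.17), and *Dusp10*, a phosphatase that acts on stress kinases, at 85.9 against 179 CPM (-1.05), both lower in every one of the 8 patches. Against the 117 neighbors below 500 CPM of the epithelial genes alone, both were higher in the members.

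The 8 patches shared the collagens and *Aldh1a2*, and differed in *Igf2* and *Ptgds*. *Col1a1*, *Col3a1*, *Col1a2* and *Aldh1a2* were past 2-fold above the patch's own neighbors in 8 of 8 patches. *Lum* was higher in all 8 and past 2-fold in 7, *Dcn* and *Mgp* in 6 each, and *Igf2* and *Ptgds* in 4 each. *Igf2* ranged from 0 to 274 CPM over the patches. It was at 179, 137, 73.0 and 274 CPM in patches 1, 3, 7 and 8, and at 7.47 CPM or less in the other 4. Patches 1, 3 and 8 had 7, 8 and 4 spots at the tissue edge, patch 7 lay at the border of the capture area, and the other 4 patches had 0 edge spots.

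In 1 patch decorin did not go with the collagens. Patch 4, of 9 spots with none at the edge, had *Col1a1* at 605 CPM and *Col3a1* at 262 CPM, past 2-fold above its neighbors, but *Dcn* at 17.4 CPM (7 UMIs), below its neighbors (log2 -0.73). It had *Acta2* at 219 CPM, the highest of the 8 patches (39.5 to 219 CPM), and *Gfap* at 4479 CPM. Its median depth was 43653 UMIs per spot. Over the 8 patches *Dcn* ranged from 17.4 to 356 CPM and *Col1a1* from 534 to 1091 CPM.

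**Figure D3:**
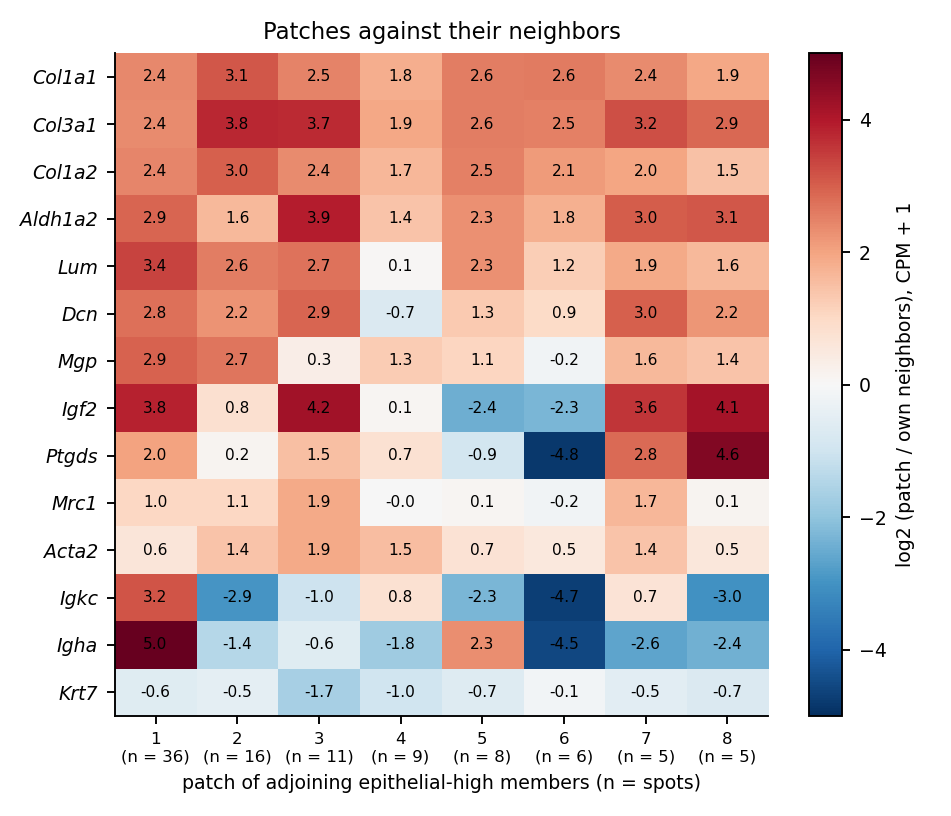
Log2 ratio (color and printed value) of 14 genes (rows) in each of the 8 patches of at least 5 adjoining epithelial-high members (columns) against the patch's own neighbors within 3 steps, after adding 1 CPM. The collagen rows and *Aldh1a2* are above 1 in all 8 columns, *Igf2* in 4, and *Igha* and *Igkc* are high in the first column.

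Some genes known from the meninges also differed within the class by place. The 30 epithelial-high members at the tissue edge had *Dcn* at 221 CPM and the 112 away from it 118 CPM, *Aldh1a2* at 141 and 41.0 CPM, *Igf2* at 285 and 54.4 CPM, and *Ptgds* at 549 and 31.2 CPM. *Col1a1* was at 875 and 857 CPM. *Foxd1*, a transcription factor of meningeal fibroblasts, was at 59.2 and 11.9 CPM. Edge spots had a median of 14419 UMIs against 35201.5, and *Epcam* was at 868 against 1271 CPM, so a lower epithelial level and less depth went with the edge, and their part was not tested.

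Most plasma cell transcripts lay in 1 patch. *Igkc*, an antibody light chain, was at 237 CPM [223 to 252] in the epithelial-high members and 13.4 CPM in their neighbors (log2 4.05), *Igha*, the IgA heavy chain, at 177 and 5.04 CPM (4.88), and *Jchain*, which joins IgA units, at 30.3 and 2.24 CPM (3.27). Only 36 of the 142 members had an *Igkc* UMI. The 6 members with the most, all in patch 1 and at most 5 steps apart, held 783 of the 1069 *Igkc* UMIs of all members. Without patch 1, *Igkc* and *Igha* were lower in the members than in the neighbors (log2 -0.40 and -0.59). Antibody chain genes belong to a multigene family, and whether their probes also bind near-identical members was not tested.

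In the same way 1 spot carried *Ttr*, the transthyretin of choroid plexus. It held 2711 of the 2761 *Ttr* UMIs of all members, and without it the members were at 11.4 CPM. *Col1a1*, *Aldh1a2* and *Mgp* were spread more evenly, with 3.53%, 3.66% and 7.72% of their UMIs in the top member. *Igf2* and *Ptgds* lay between, with 10.3% and 18.6% in the top member.

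The matrix genes dropped within 1 array step. Around the epithelial-high members, *Col1a1* went from 859 CPM in the members to 201, 120.1 and 99.0 CPM at 1, 2 and 3 steps, and *Col3a1* from 459 to 93.0, 46.5 and 41.3 CPM. *Dcn* reached 34.4 CPM at 1 step and stayed between 31.2 and 45.1 CPM out to 6 steps. *Krt7* was at 2009 CPM in the members, 3704 CPM at 2 steps and 1953 CPM at 6 steps. Around the epithelial-low members, *Dcn* went from 508 to 112, 38.3 and 28.8 CPM at 1, 2 and 3 steps. Members are the top of the range by choice, so the drop at the first step is in part set by the rule for its 3 genes.

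**Figure D4:**
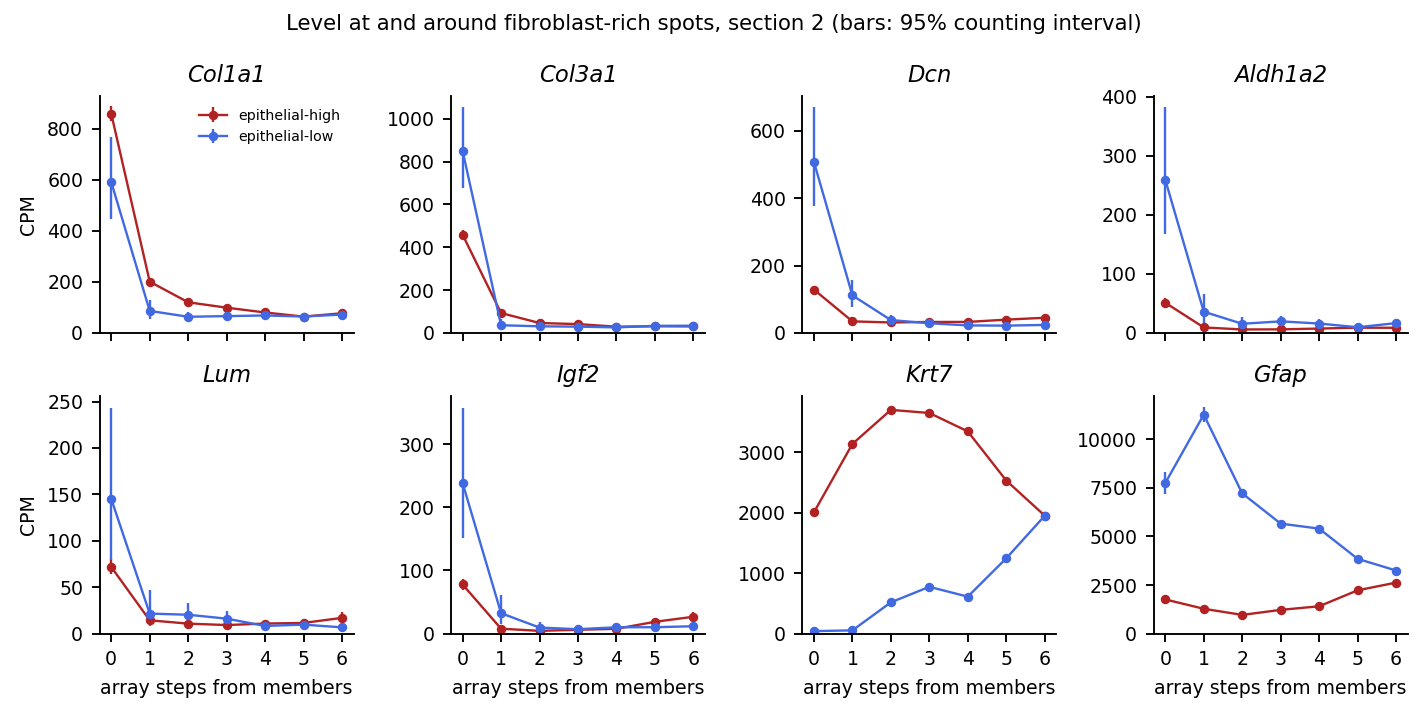
Pooled level in CPM (y axis, linear from 0) of 8 genes in the members (0) and in non-member spots 1 to 6 array steps away (x axis), for the epithelial-high (red) and epithelial-low (blue) class, with bars for the 95% counting interval. The matrix and meningeal genes drop at 1 step, while *Krt7* goes from 2009 to 3704 CPM by 2 steps around the epithelial-high members.

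The 14 epithelial-low members also stood above their neighbors in matrix genes, and in some meningeal and border macrophage genes. Of 10941 genes with at least 20 CPM in either group, 1521 were more than 2-fold higher than in the 172 neighbors (13.9%) and 1565 lower (14.3%), together 28.2%. With 96476 UMIs in the class, many genes at 20 CPM rest on few UMIs, and with at least 10 UMIs required in the higher group 251 were higher (3.62%) and 1565 lower (22.6%) of 6933 genes. This filter could take out only genes higher in the members, since each gene counted as lower already had 10 UMIs in the deeper neighbors. The lean to lower genes under it is thus set in part by depth, and the median log2 went from 0.03 to -0.38. Set by UMIs per spot, the split was 430 and 5645. No patch of this class reached 5 spots, so no gene could be checked across patches.

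Several fibrillar collagens and proteoglycans were higher, with at least 10 UMIs each for the genes named here. *Col3a1* had 82 UMIs, 850.0 CPM [676 to 1055] against 30.7 CPM in the neighbors (log2 4.75), *Col1a2* 92 UMIs, 954 CPM against 90.6 CPM (3.38), and *Dcn* 49 UMIs, 508 CPM [376 to 671] against 41.0 CPM (3.60). *Lum* and *Serpinf1* had 14 UMIs each, and *Bgn* 45 UMIs, 466 CPM against 56.3 CPM (3.03). *Eln*, the gene of elastin, was at 259 CPM [168 to 383] against 28.0 CPM (3.17), and *Efemp1*, a fibulin of elastic fibers, at 135 CPM against 13.8 CPM (3.20). Of the 7 fibrillar collagen genes that reached the level, 6 were higher by more than 2-fold and 0 lower, with a median log2 of 3.07 beside 0.03 over all genes compared, and without the 2 that chose the members it was 4 of 5, with a median of 1.23. With at least 10 UMIs in the higher group, 2 of 3 such genes were past it, beside 3.62% of all genes past 2-fold higher. Collagens outside the fibrillar and basement membrane lists did not go with them: 5 of the 13 that reached the level were higher, each on 5 UMIs or fewer. With at least 10 UMIs 0 of 5 were past 2-fold, with a median of -0.56 beside -0.38 over all such genes.

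Single genes known from the meninges were higher too, while the lists of meningeal layers differed. With at least 10 UMIs in the higher group, 0 of 3 pial genes were higher and 1 was lower (median log2 -0.12). For arachnoid barrier genes 2 of 4 were higher (median 1.54), and for dural genes 1 of 2 (median 1.78). Over all such genes, 3.62% were past 2-fold higher and 22.6% lower, with a median log2 of -0.38. *Aldh1a2* had 25 UMIs in 10 of the 14 members, 259 CPM [168 to 383] against 20.1 CPM (log2 3.62), and *Igf2* 23 UMIs in 9 members, 238 CPM [151 to 358] against 10.6 CPM (4.36). *Slc7a11*, a cystine transporter, was at 269 CPM [176 to 395] against 37.0 CPM (2.83). Of 3 listed meningeal transporters with at least 10 UMIs in the higher group, 1 was higher and 1 lower. *Aqp1*, a water channel on the choroid plexus list, was at 155 CPM [87.0 to 256] against 7.88 CPM (4.14). On that list of 6, *Ttr*, *Folr1*, *Clic6* and *Kcne2* had 0 UMIs in the members, which allows up to 31.1 CPM each. *Foxd1* had 9 UMIs in 5 members, 93.3 CPM [42.7 to 177] against 10.6 CPM. *Ptgds* was at 529 CPM against 60.7 CPM, but 27 of its 51 UMIs came from 1 member at the tissue edge, 11 steps from the tumor. *Sfrp4* (a Wnt inhibitor), *Prg4* (lubricin) and *Ffar4* (a fatty acid receptor) rested on 9, 6 and 5 UMIs.

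The 9 members next to the tumor and the 5 farther away differed in some genes, though the 5 held only 29543 UMIs in all. *Dcn* was at 508 CPM in both sets, but *Col3a1* was at 1121 CPM [881 to 1405] and 237 CPM [95.3 to 488]. *Aldh1a2* was at 344 CPM [218 to 516] and 67.7 CPM [8.20 to 245], the latter from 2 UMIs. *Lum* was at 209 CPM [114 to 351] and at 0 UMIs, with an interval up to 125 CPM. The intervals of *Aldh1a2* and *Lum* thus overlapped. *Ptgds* ran the other way, at 164 and 1354 CPM, but most of its 40 UMIs in the farther set came from the single edge member named above. The single member 27 steps away held 14 of the 28 *Pcp2* UMIs of the class, a Purkinje cell gene, and the 2 members 5 and 6 steps away had 177 and 185 UMIs of the astrocyte gene *Gfap*.

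Border macrophage genes were higher in this class. *Cd163*, a scavenger receptor of border macrophages, had 10 UMIs in 8 of 14 members, 104 CPM [49.7 to 191] against 6.30 CPM in the neighbors (log2 3.84). Of 5 border macrophage genes that reached the level 4 were past 2-fold, all higher, and *Lyve1* had 1 UMI. Over all genes compared, 13.9% were past 2-fold higher, or 3.62% with at least 10 UMIs in the higher group. Of 5 general macrophage markers 1 was past 2-fold higher, and 0 of 3 with at least 10 UMIs. *Cd74* was at 1192 CPM [984 to 1431] against 246 CPM (2.27), and *Ccl8*, a chemokine that attracts monocytes, at 342 CPM [235 to 480] against 49.2 CPM (2.77). *Igkc*, *Igha* and *Jchain* were at 466, 363 and 93.3 CPM, with UMIs in 5, 4 and 2 of the 14 members, and 1 member held 32 of the 45 *Igkc* UMIs. With members chosen by *Col1a2*, *Col6a1* and *Col6a2* instead, which left 8 epithelial-low members, the direction turned, and these 3 genes were below the neighbors (log2 -1.19, -1.42 and -2.54). *Cd3e*, part of the T cell receptor complex, had 6 UMIs in 4 members, and *Hbb-bs*, a hemoglobin chain of red cells, 34 UMIs in 8. *Csf1r* was at 384 against 252 CPM, *Arg1* at 1057 against 918 CPM, and *Il34* had 1 UMI. *Arg1* was not even over the class. It was at 1509 CPM [1229 to 1834] in the 9 members next to the tumor. In the 5 farther away it was at 33.8 CPM [0.857 to 189], from 1 UMI.

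Markers of Purkinje neurons and of astrocytes were lower. *Calb1* and *Car8*, both Purkinje cell genes, were at 155 against 754 CPM and at 363 against 1213 CPM, and 3 of 4 Purkinje markers were lower by more than 2-fold. Over all genes compared, 14.3% were lower by more than 2-fold, or 22.6% with at least 10 UMIs in the higher group. *Id4*, *Ngfr*, *Gpd1*, *Reln* and *Ppp1r1b* had 0 UMIs in the members and were at least 4.62-fold, 4.17-fold, 3.89-fold, 3.15-fold and 3.05-fold higher in the neighbors. *Ngfr* is on the list of pial markers used here. *Kcnab1*, *Mtmr7*, *Otulin*, *Fgfr2* and the secreted lectin *Reg3b*, also at 0, were at least 1.98-fold to 2.41-fold higher in the neighbors. These least folds take 31.1 CPM for a count of 0 and leave out counting error in the neighbors. Of 4 astrocyte markers 3 were lower by more than 2-fold, with a median log2 of -1.14 over the 4. *Slc1a3*, a glutamate transporter, was at 301 against 646 CPM, *Aqp4*, a water channel, had 7 UMIs (log2 -1.18) and *Aldh1l1* 3 UMIs (-1.75). *Gfap*, the filament of reactive astrocytes, was within 2-fold, at 7753 CPM in the members and 6789 CPM in the neighbors. It was at 5304 CPM in the 9 members next to the tumor and 13303 CPM in the 5 farther away. Most of its UMIs in the latter came from the members with high *Gfap* counts named above. The oligodendrocyte markers summed to 2467 and 2011 CPM. Defining markers of skeletal muscle, bone, cartilage, fat, mast cells and Schwann cells had at most 4 UMIs in all per list.

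**Figure D5:**
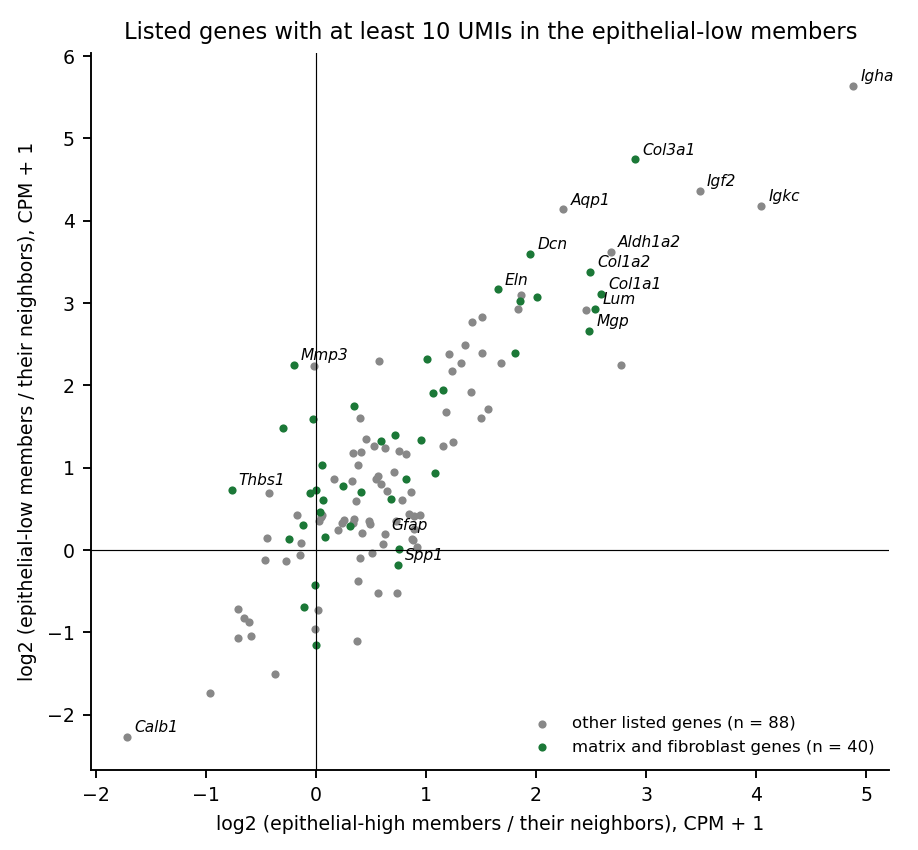
Log2 ratio to the neighbors, after adding 1 CPM, in the epithelial-high (x axis) and epithelial-low (y axis) members, for the 128 listed genes with at least 10 UMIs in the epithelial-low members and at least 20 CPM in the epithelial-high members or their neighbors. Green points are 40 matrix and fibroblast genes, those that chose the members included, and *Mmp3* is high on the y axis alone. Genes low in the epithelial-low members could not enter.

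Set against each other, the classes differed in epithelial genes through the split itself. Of 11037 genes with at least 20 CPM in either class, 1964 were more than 2-fold higher in the epithelial-high members (17.8%) and 2243 in the epithelial-low members (20.3%), together 38.1%. Per spot and not by CPM, 8934 genes were higher in the epithelial-high and 252 in the epithelial-low members. With at least 10 UMIs in the higher class the split was 1964 (28.5%) and 499 (7.24%) of 6896 genes. Here too the filter could take out only genes higher in the shallower, epithelial-low class. The genes *Ly6d*, *Lama5*, *Wwc1*, *Kcne3*, *Krtcap3*, *Kctd14* and *Ceacam1* had 0 UMIs in the epithelial-low members and were at least 13.1-fold, 6.62-fold, 5.42-fold, 5.01-fold, 3.82-fold, 3.87-fold and 3.75-fold higher in the epithelial-high members. *Postn* (periostin), a matrix protein of activated fibroblasts and some tumors, was at 264 CPM against 0 UMIs, at least 8.50-fold. *Id4* was at least 4.19-fold higher, and *Ttr*, from the 1 spot above, at least 20.6-fold. These least folds too take 31.1 CPM for a count of 0 and leave out counting error in the epithelial-high members.

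The genes higher in the epithelial-low members, by CPM, included *Mmp3* and genes of border macrophages and Purkinje cells. The listed matrix proteases and inhibitors did not go with *Mmp3* as a whole. They summed to 3354 CPM in the epithelial-high and 2882 CPM in the epithelial-low members. *Mmp3*, the protease stromelysin-1, was at 373 CPM [261 to 517] in 7 of 14 members and at 19.4 CPM in the epithelial-high members (log2 -4.19), which were level with their own neighbors (22.6 CPM). *Cd163* was at 104 against 6.95 CPM (-3.72). *Pcp2*, *Rgs8* and *Gng13* were at 290.2, 269 and 249 CPM (log2 -4.02, -4.28 and -4.00 in the epithelial-high over the epithelial-low members), and their levels were higher still in the epithelial-low members' neighbors, at 514, 443 and 523 CPM. With members chosen by *Col1a2*, *Col6a1* and *Col6a2*, *Gng13* turned to 3.98 and *Grid2ip* to 2.36, and *Pcp2*, *Rgs8* and *Mmp3* were at -0.68, -1.10 and -1.09. *Traj9*, *Grm7*, *Grid2ip*, *Slco1a4* and *Adarb2* rested on 5 to 7 UMIs. *Dcn* (-1.97), *Aldh1a2* (-2.32) and *Igf2* (-1.60) were higher in the epithelial-low members by CPM, and per spot *Dcn* (0.16) and *Igf2* (0.52) were, as *Lum* and *Cd68*, higher in the epithelial-high members.

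Section 1 under the same rule gave spots of another kind. Its 127 members were all epithelial-low, their limit was 42841 CPM against 747.8 CPM in section 2, and *Col1a1* was at 32838 CPM in the members and 19205 CPM in their 586 neighbors. *Krt7* was at 1.80 CPM in its members. Genes known from the meninges were not higher in its members, with *Aldh1a2* at 5.01 CPM and *Igf2* at 1.54 CPM, beside 5.16 and 4.02 CPM in the neighbors. *Igkc* was at 329 CPM in its members and 715 CPM in their neighbors. The rule therefore picked matched shares of spots but not matched tissue, and section 1 gives no second copy of either class.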

How the data were processed

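Counts were those deposited by the authors for each of the 2 sections as a matrix of UMIs per gene and spot, made from formalin-fixed sections with Space Ranger 2.1.1 on mm10 (the submitters' processing notes), with 19465 rows of the probe set. The deposited counts were not normalized. The members, the gene lists and the rules were chosen with earlier results of these data known. Here UMIs were summed over the spots of a group and divided by the group's total (CPM), and a gene was counted where the higher group had at least 20 CPM and the fold change after adding 1 CPM was beyond 2. Genes named beside the listed ones had at least 50 CPM in the higher group and the largest fold change, up to 10 per direction, the same way in every patch of at least 5 adjoining members where a class had one, with *Il34*, *Csf1r* and *Arg1*. Other genes are examples from the lists. Intervals are exact Poisson intervals of a level (95%), for counting error only. Of 376 listed genes, 363 matched a single row and 13 did not. No spot was left out as a doublet, since a spot is not a cell. The steps, tested on simulated data, used scipy 1.17.1 for intervals and rank correlations and pandas 2.3.3 for sums, under Python 3.11.15. Of the 24 alternatives, those on a minimum of 10 UMIs and on leaving out members by detection, *Ttr* or *Igkc* were chosen after seeing the data. The deposited files of counts and positions hold no comparisons of the authors' own. The study's supplement lists altered genes for replicate 2, and that list was not set beside these values. A gene that the naming rule picks is not reported here.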

Additional observations from a re-analysis of the deposited data

How the results depend on the processing

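No paired analysis was possible because the members lie in 1 section, and for the same reason no replicate could be left out. The count of genes past 2-fold was 130 in the epithelial-high members against their neighbors and stayed within 1.5 times under 17 of 24 alternatives (89 to 159). It was 227 with a minimum level of 5 CPM, 64 with 50 CPM, 85 after adding 5 CPM, 73 with neighbors within 1 step, 227 with neighbors 2 to 3 steps away, 237 with epithelial neighbors and 2801 with neighbors below 500 CPM of the epithelial genes. In the epithelial-low members it was 3086 and stayed within 1.5 times under 18 of 24 (2502 to 3932). It was 2038 with the top 5% of spots, 1026 with the split at 1000 CPM, 6075 by UMIs per spot, 5468 and 1296 with 5 and 50 CPM, and 1816 with at least 10 UMIs. Between the classes it was 4207, within 1.5 times under 14 of 19 (3581 to 4646), and 2603 with the split at 1000 CPM, 9186 by UMIs per spot, 6568 and 2182 with 5 and 50 CPM, and 2463 with at least 10 UMIs. Of the values of 99 named genes and comparisons under the alternatives, 1394 kept their place, 462 moved and 28 changed sign, and the cause was not tested. With members chosen by *Col1a2*, *Col6a1* and *Col6a2*, the log2 ratio to neighbors in the epithelial-low members was -1.42 for *Igha*, -2.54 for *Jchain*, -1.19 for *Igkc* and 0.26 for *Ppp1r1b*, and between the classes -9.90 for *Ttr*, 3.98 for *Gng13*, 2.36 for *Grid2ip*, 2.49 for *Igha* and 4.82 for *Jchain*. With the split at 1000 CPM, *Ppp1r1b* was at 0.54 and *Ttr* between the classes at -9.66. By UMIs per spot the classes differed by 0.16 for *Dcn*, 1.10 for *Igha*, 0.51 for *Jchain*, 0.52 for *Igf2*, 1.11 for *Lum* and 1.02 for *Cd68*. Without the largest patch, *Igkc* was at -0.40 and *Igha* at -0.59 in the epithelial-high members. Without spots with fewer than 6 tissue spots around them, *Prg4* was at -0.95 and *Epcam* at 1.37 in the epithelial-low members, and *Ttr* at -2.97 between the classes. Against neighbors below 500 CPM of the epithelial genes, *Tfcp2l1* was at 3.95, *Dusp10* at 0.78, *Ptgds* at -0.996 and *Cd163* at -0.77 in the epithelial-high members, and *Krt7* at 0.30 and *Epcam* at 1.02 in the epithelial-low members.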
